A study of Mus musculus with 2 samples.

Results

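The small nucleolar RNAs (snoRNAs) described here are the genes whose annotated transcripts are all of type snoRNA and whose mean expected count over the 2 heart libraries was 10 or more. An expected count estimates the reads of a gene and divides those shared by several genes. The rule kept 45 of 1507 snoRNA genes in the annotation (2.99%), so the counts below chose the members and are given as a description. Of the members, 8 have Snora names, 4 have Snord names, 1 is Scarna10, 10 are records of the U3 genes Rnu3a and Rnu3b, and 22 carry provisional Gm names. The samples were total RNA from whole heart of female B6CASTF1/J mice, first-generation crosses of C57BL/6J and CAST/EiJ, aged 18 to 20 months, with 300 ng of RNA per library and ERCC spike-in RNAs of a profile meant for stranded libraries reduced in ribosomal RNA. There was 1 group with biological replicates 1 and 2, and the labels name no treatment. The labels name separate biosamples but a single donor entry, so the spread between the libraries may be technical in part. With 1 library on each side of every ratio, no difference between them has a replicate check.

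Replicate 1 held 35897521 expected counts and replicate 2 held 36926429. All 5 cardiomyocyte markers (Myh6, Myl2, Tnnt2, Actc1 and Ryr2) lay between 396 and 8743 TPM (a level per effective length, scaled to the same total in each library). The skeletal muscle markers Myh4 and Myog, the liver marker Alb and the neuronal marker Snap25 were at 0 in both libraries. The other markers of these tissues, Myh1, Apoa1, Rbfox3 and Syt1, had at most 7 counts in a library.

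SnoRNAs are short stable RNAs that work in the nucleolus, where ribosomal RNA is made. Those of the C/D box class carry a C box near the 5′ end and a D box near the 3′ end and guide the methylation of ribose in ribosomal RNA. Those of the H/ACA class end in an ACA triplet and guide the conversion of uridine to pseudouridine. A few, among them U3, Snora73 (also called U17) and Snord22 (U22), are known for the cutting of the ribosomal RNA precursor. Most mammalian snoRNAs are cut out of introns of a host gene after splicing, whereas U3 is transcribed from its own promoter. Small Cajal body RNAs (scaRNAs) are their relatives that modify spliceosomal RNAs, and Scarna10 is one that combines both box classes.

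The sequences below are the members on which the results turn, from the GENCODE M21 transcripts of mm10, written 5′ to 3′ as DNA in the orientation of the RNA. Capitals mark the letters TGATGA (the core of the C box) and CTGA (the D box) in the first set. The 4 Snord members are shown because no other Snord-named gene reached the minimum. The U3 genes are shown because their copies share reads, and the ends of Scarna10 because it held the most counts.
Snord15b: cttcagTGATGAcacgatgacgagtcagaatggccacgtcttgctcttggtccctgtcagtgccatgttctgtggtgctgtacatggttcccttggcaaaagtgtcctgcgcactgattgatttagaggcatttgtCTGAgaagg
Snord15a: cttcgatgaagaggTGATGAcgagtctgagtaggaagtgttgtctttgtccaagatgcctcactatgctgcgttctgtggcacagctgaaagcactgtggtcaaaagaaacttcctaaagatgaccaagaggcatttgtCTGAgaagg
Snord17: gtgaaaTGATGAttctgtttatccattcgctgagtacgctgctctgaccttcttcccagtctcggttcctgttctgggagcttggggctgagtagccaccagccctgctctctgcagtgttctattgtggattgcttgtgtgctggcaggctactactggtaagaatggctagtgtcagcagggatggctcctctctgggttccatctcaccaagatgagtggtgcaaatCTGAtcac
Snord22: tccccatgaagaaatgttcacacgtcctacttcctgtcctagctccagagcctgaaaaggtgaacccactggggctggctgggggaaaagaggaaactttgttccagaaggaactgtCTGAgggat
Rnu3b1: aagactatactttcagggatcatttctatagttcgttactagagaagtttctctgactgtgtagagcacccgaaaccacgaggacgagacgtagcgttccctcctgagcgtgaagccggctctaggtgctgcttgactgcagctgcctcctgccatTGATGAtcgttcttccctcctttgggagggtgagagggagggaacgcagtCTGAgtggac
Rnu3a: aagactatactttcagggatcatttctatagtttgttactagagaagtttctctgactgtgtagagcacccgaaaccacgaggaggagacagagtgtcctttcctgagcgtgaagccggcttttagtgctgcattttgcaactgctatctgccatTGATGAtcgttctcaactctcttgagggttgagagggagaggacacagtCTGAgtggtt
Scarna10, first 60 nt of 325: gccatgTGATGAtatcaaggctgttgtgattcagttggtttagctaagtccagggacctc
Scarna10, last 60 nt of 325: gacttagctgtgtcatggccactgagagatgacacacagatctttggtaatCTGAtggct
Of these, Snord15b (chr7:99479563-99479707), Snord15a (chr7:99482785-99482932), Snord17 (chr2:144265979-144266216) and Scarna10 (chr6:125186359-125186683) lie on the minus strand. Snord22 (chr19:8725866-8725991), Rnu3b1 (chr11:87443237-87443452) and Rnu3a (chr10:40258467-40258680) lie on the plus strand. In the second set capitals mark the ACA triplet within the last 7 nt. It holds the Snora73 family, the member with the highest TPM (Gm26447), and 2 pairs of near-identical copies.
Snora73b: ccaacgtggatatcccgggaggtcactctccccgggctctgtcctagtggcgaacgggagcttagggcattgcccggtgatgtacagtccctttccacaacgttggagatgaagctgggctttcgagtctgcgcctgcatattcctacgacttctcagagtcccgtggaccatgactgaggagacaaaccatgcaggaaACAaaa
Snora73a: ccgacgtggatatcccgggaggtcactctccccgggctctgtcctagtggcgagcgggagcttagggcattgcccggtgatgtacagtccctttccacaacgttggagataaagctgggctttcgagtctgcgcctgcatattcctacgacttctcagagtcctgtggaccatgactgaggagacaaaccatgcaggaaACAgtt
Gm26448: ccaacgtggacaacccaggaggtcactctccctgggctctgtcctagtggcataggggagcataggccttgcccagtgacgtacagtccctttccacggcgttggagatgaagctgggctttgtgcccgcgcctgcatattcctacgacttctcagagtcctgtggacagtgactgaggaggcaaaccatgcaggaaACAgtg
Gm26447: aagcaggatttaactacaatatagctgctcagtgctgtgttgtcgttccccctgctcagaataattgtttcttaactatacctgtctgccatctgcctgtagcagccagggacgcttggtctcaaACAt
Gm22988: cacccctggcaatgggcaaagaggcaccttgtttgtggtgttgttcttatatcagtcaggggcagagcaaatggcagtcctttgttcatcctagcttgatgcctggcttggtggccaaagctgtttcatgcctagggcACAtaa
Gm25291: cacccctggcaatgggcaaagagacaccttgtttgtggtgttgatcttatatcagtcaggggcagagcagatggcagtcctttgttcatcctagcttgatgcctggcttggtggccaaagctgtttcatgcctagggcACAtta
Gm25788: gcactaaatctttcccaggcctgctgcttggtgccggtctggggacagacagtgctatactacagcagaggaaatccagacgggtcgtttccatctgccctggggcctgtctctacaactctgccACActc
Gm22154: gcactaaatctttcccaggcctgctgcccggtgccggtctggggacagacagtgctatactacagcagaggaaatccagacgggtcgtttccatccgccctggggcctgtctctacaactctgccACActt
Snora73b (chr4:132352322-132352526), Snora73a (chr4:132352775-132352979), Gm22988 (chr11:69669635-69669778) and Gm25291 (chr11:51737779-51737922) lie on the minus strand. Gm26448 (chr9:120129351-120129553), Gm26447 (chr16:23111301-23111429), Gm25788 (chr4:123291344-123291474) and Gm22154 (chr4:123293152-123293282) lie on the plus strand.

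No snoRNA gene below a fixed annotated length held counts. In the deposited gene tables the effective length of each member was its annotated length less 99 nt, and none of the 458 snoRNA genes under 100 nt held a count in either library. That group holds 87 of the 98 Snord-named genes, whose median length is 80 nt, but none of the 42 Snora-named genes, whose median is 132.5 nt. A count of 0 for a snoRNA gene under 100 nt therefore carries no information on its level. Among 1049 snoRNA genes of 100 nt or more, 116 (11.1%) held a count and 45 (4.29%) were members. From 100 to under 120 nt, 3 of 130 held a count and 0 were members. From 120 to under 140 nt 16 of 800 were members, from 140 to under 200 nt 12 of 88, and at 200 nt or more 17 of 31, of which 10 were U3 records.

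**Figure D1:**
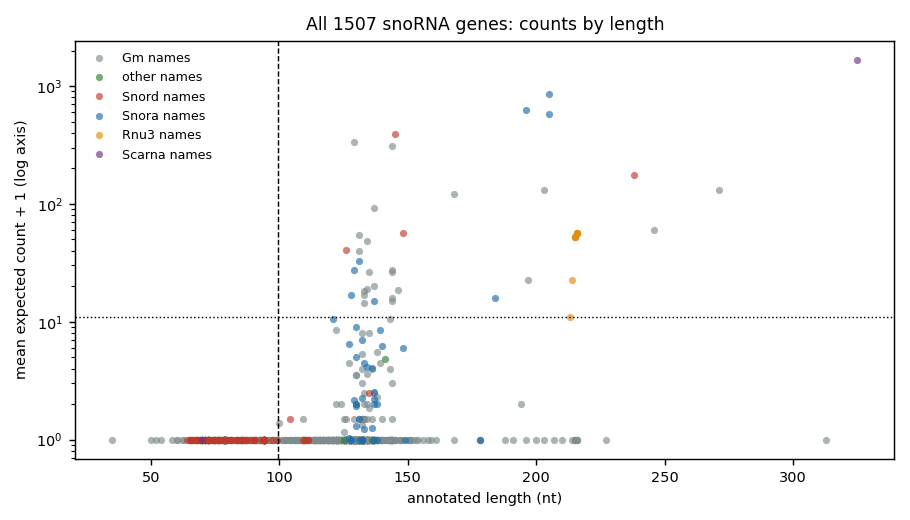
Mean expected count over both libraries plus 1 (log axis) against annotated length in nt, with 1 point per snoRNA gene coloured by name class. The dashed line stands just under 100 nt and the dotted line at the minimum of 10 counts; all 458 genes left of the dashed line sit at 0 counts.

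Within that limit the share measured differed by name. Of Snora-named genes, 32 of 42 held a count and 8 were members, and of the 11 Snord-named genes of 100 nt or more 6 held a count and 4 were members. Of 982 Gm-named genes of 100 nt or more, 66 held a count and 22 were members. Just inside the minimum were a Rnu3a record (mean count 10), Gm25394 (13.5), and Snora21 and Gm25117 (14 each). Just outside it were Snora26 (9.62), Gm25776 (9.50) and Snora61 (7.98).

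The letters of the boxes were searched on the RNA strand only. TGATGA within the first 25 nt occurred in 21.8% of all 1507 snoRNA genes and in 7 of the 45 members (15.6%). CTGA within the last 15 nt occurred in 31.4% of all and in 19 members (42.2%), and ACA within the last 7 nt in 46.0% of all and in 25 members (55.6%). Among the 1049 genes of 100 nt or more the shares were 1.81%, 9.72% and 61.9%. Members with CTGA there and TGATGA anywhere numbered 17, the 10 U3 records and Scarna10 included, and are called the C/D letter class. A further 24 had ACA without that pair and are called the ACA letter class, which left 4 with neither (Gm23262, Snord22, Snora44 and Gm24336). By these letters 17 of the 22 Gm-named members fell in the ACA class and 3, Gm23547, Gm22486 and Gm25835, in the C/D class.

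A few members held most of the counts. The 7 records with the most counts took 73.4% of all counts over the members, and 11 of 45 had a mean of 100 or more. Scarna10 (ENSMUSG00000089617.1), within the condensin gene Ncapd2, had the highest counts, 1333 in replicate 1 and 2011 in replicate 2, or 211 and 302 TPM. Snora73b (ENSMUSG00000065353.1) had counts of 731 and 982, or 247 and 315 TPM. Its neighbour Snora73a, 96.6% identical to it, had 519 and 647, or 175 and 208 TPM. Snora74a, an H/ACA guide also known as U19, had counts of 498 and 749, or 184 and 262 TPM. In each of these 4 genes replicate 2 was the higher library.

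By TPM, which divides by effective length, the order differed from that by counts. Gm26447 (ENSMUSG00000064382.1), inside Eif4a2, a helicase gene of translation initiation, was the highest at 349 TPM in the first library and 430 TPM in the second. It rested on 292 and 379 counts over an effective length of 30 nt, so each read weighs heavily in it. Snord15b (ENSMUSG00000064966.1), inside the ribosomal protein gene Rps3, followed with 258 and 334 TPM, and after it came Snora73b and Scarna10. Gm22988, inside the helicase gene Eif4a1, was next with 192 and 285 TPM. Gm23547, inside the prohibitin gene Phb2, had 114 and 147 counts but 23.7 and 29.0 TPM over its 271 nt. Gm22486, inside Ptcd3, a gene of mitochondrial translation, had 79.2 and 86.8 TPM, and Gm23262, inside the translation factor gene Eif4g2, had 45.0 and 75.2 TPM.

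Over all 45 members the median was 20.4 ± 3.54 TPM (SD, n = 2) and the means ranged from 3.14 to 389 TPM. Together they held 0.239% of TPM in replicate 1 and 0.324% in replicate 2, but only 0.0148% and 0.0209% of expected counts. The gap between those shares goes with the short effective lengths, whose median was 47 nt. The second set of deposited transcript estimates, in the column layout of kallisto, listed 44 of the 45 members at 0 in both libraries. Scarna10 had estimated counts of 1 and 3 there, and these were the only ones over all 1507 snoRNA genes.

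**Figure D2:**
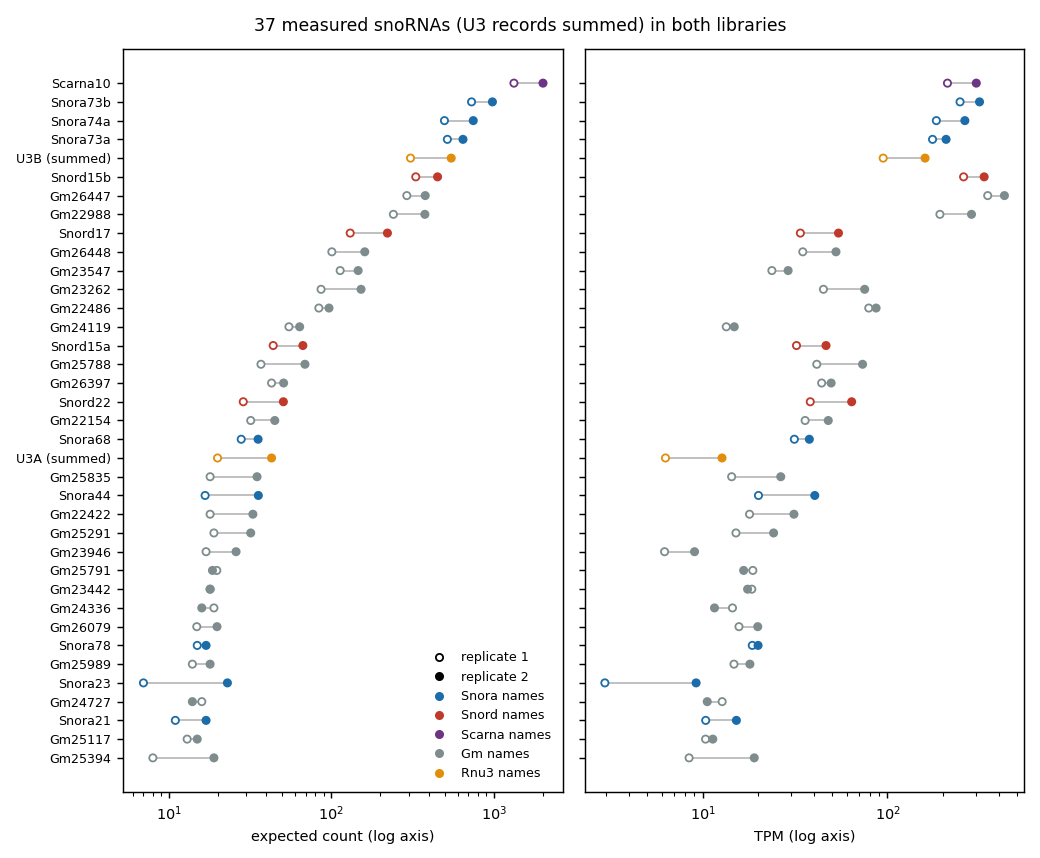
Expected count (left) and TPM (right) of each measured snoRNA on log axes, with open circles for replicate 1, filled circles for replicate 2, colours for name classes, and the U3 records summed into U3A and U3B. Scarna10 has the most counts while Gm26447 has the highest TPM, and the filled circle lies to the right for 33 of the 37.

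All 4 Snord members carried counts in both libraries. Snord15b had 332 counts in replicate 1 and 452 in replicate 2. Snord15a (ENSMUSG00000065822.1) lies in the same host, Rps3, and had 44 and 67. Snord17 (ENSMUSG00000077714.1), inside the sorting nexin gene Snx5, had 131 and 222. Snord22 (ENSMUSG00000065087.1), inside the long noncoding RNA gene Snhg1, had 28.8 and 50.8. The ranges of Snord15b and Snord15a did not overlap, although both lie in the same host gene. An annotated Rps3 transcript has an exon over Snord15b, and none has an exon over Snord15a.

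The other Snora members were low. Snora68 had 28.0 and 35.5 counts, Snora44, inside Snhg12, 16.8 and 35.7, and Snora78, inside Snhg9, 15 and 17. Snora21, inside Rpl23, had 11 and 17, and Snora23, inside the importin gene Ipo7, had 7 and 23. The median over the 8 Snora genes was 25.7 and 39.1 TPM in replicates 1 and 2, and over the 4 Snord genes 36.0 and 59.1 TPM. On the log2(TPM + 0.1) scale the difference of medians, Snora minus Snord, was -0.52 and -0.59. Means per gene ran from 6.08 to 281 TPM in the first class and from 39.3 to 296 TPM in the second. The classes thus overlapped widely, and since both were chosen by their counts and most Snord genes are too short to be counted, this is no comparison of the 2 kinds of guide. By letters the C/D class without U3 (7 genes, Scarna10 among them) had medians of 33.8 and 54.3 TPM. The ACA class (24 genes) had medians of 18.5 and 22.0 TPM.

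The U3 genes were measured through duplicate records. The annotation lists each of the loci Rnu3b1 to Rnu3b4 on chromosome 11 as 2 records of 216 and 215 nt, and Rnu3a on chromosome 10 as 2 records of 214 and 213 nt. The 216-nt records of the 4 Rnu3b loci are identical, and all of their 100-nt stretches also lie in another of these loci. Each 216-nt record was listed at 33.0 counts in replicate 1 and 78.9 in replicate 2, and each 215-nt record at 44.0 and 58.1. Which copy was transcribed cannot be told apart in these tables. Summed over its 8 records, U3B had 308 and 548 counts, or 94.8 and 160 TPM. For Rnu3a the longer record had 0 counts in replicate 1 and 43 in replicate 2, and the shorter had 20 and 0. Taken singly, these records differ between the libraries in opposite directions. Summed as U3A they gave 20 and 43 counts, or 6.28 and 12.7 TPM. Identity between the U3A and U3B records was 85.4% or 85.8%, and no 100-nt stretch of Rnu3a lay in another snoRNA locus. With these sums the 45 records become 37 snoRNAs with a median of 30.7 TPM.

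Other members came in families of near copies. Gm26448, inside the ribosomal protein gene Rpsa, was 87.8% identical to Snora73b and had 101 and 161 counts. Gm22988 was 97.2% identical to Gm25291, inside Sec24a, 93.8% to Gm24727, inside Gsr, and 91.0% to Gm25117, inside Nap1l1. Gm22988 had 242 and 377 counts, while Gm25291 had 19 and 32, Gm24727 16 and 14, and Gm25117 13 and 15. Gm25788 and Gm22154 lie in the same gene, Pabpc4, which encodes a poly(A) binding protein, and differ at 4 of 131 positions. They had 37 and 69 counts, and 32 and 45 counts. Gm25989, inside Qtrt2, and Gm25394, inside Iars, were 91.0% identical and had 14 and 18, and 8 and 19 counts. Outside U3, Gm24727 was the only member with 100-nt stretches in another snoRNA locus (48.9% of them, in Gm23123).

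Nearly all members lay within another gene on the same strand. A host was taken as the protein-coding or long noncoding gene that spans the whole snoRNA, and of several the one with the higher mean expected count. It was found for 43 records, 39 of them in a protein-coding gene, and these had 32 different hosts. Only the 2 Rnu3a records had none. No exon of a spanning gene touched 28 of the 43, which are thus intronic in every annotated transcript, and 15 were overlapped by an exon of at least 1 transcript. The 8 Rnu3b records lie within Tex14, a gene of germ cell bridges, at 0.11 and 0.06 TPM. Hosts of the other 35 members ranged from 1.45 to 1058 TPM, and they include genes of translation (Rps3, Rpsa, Rpl23, Eif4a1, Eif4a2, Eif4g2 and Pabpc4) and of mitochondria (Slc25a3, Phb2, Ptcd3, Tomm20 and Timm23).

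Across these 35 pairs the levels of snoRNA and host had correlations near 0. The pairs hold only snoRNAs that passed the count minimum, so the correlations cannot describe snoRNAs and hosts in general. On the log2(TPM + 0.1) scale Pearson's r came to -0.044 and Spearman's rho to 0.028, over pairs that come from the same 2 libraries and in part share a host. In both libraries 19 members lay above their host in TPM and 15 below it. Furthest above, outside U3, were Snora73b, Snora74a, Snora73a and Scarna10. Snora73b and Snora73a lie within both Rcc1, a nuclear exchange factor gene at 3.12 and 2.48 TPM, and the long noncoding Snhg3 at 6.36 and 5.97 TPM. Snora73b exceeded Rcc1 by 6.26 in replicate 1 and 6.93 in replicate 2 on the log2 scale, and Scarna10 exceeded Ncapd2 by 5.08 and 5.62. Snora74a exceeded its host AC121821.1 by 5.70 and 6.57.

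Furthest below their hosts were snoRNAs of abundant mRNAs. Gm24119 (ENSMUSG00000077167.1, chr10:91118291-91118536) had 13.4 and 14.8 TPM, while its host Slc25a3, the mitochondrial phosphate carrier, had 1089 and 1028 TPM, a log2 difference of -6.33 and -6.11. Snora21 lay below Rpl23 by log2 differences of -4.39 and -3.89 and Gm23946 below Timm23 by -3.83 and -3.13. Gm23262 lay below Eif4g2, at 421 and 415 TPM, by -3.22 and -2.46. All 4 members in a long noncoding host outside U3 lay above it in both libraries, as did 15 of 31 in a protein-coding host. The 31 include Snora73b and Snora73a, which also lie within the long noncoding Snhg3. Those 4 noncoding hosts had means of only 1.45 to 6.13 TPM, and the count minimum that chose the members already sets a floor on their TPM. These shares are therefore no comparison of the kinds of host. When counts were divided by annotated rather than effective length, 16 of all 43 records with a host lay above it in both libraries instead of 27, and the median log2 difference changed from 1.09 to -0.55. Those 43 include the 8 Rnu3b records, each far above Tex14 by TPM. Over the 35 pairs outside U3 the median by TPM was 0.35 in replicate 1 and 0.44 in replicate 2. The count by annotated length was not taken for those 35 alone.

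**Figure D3:**
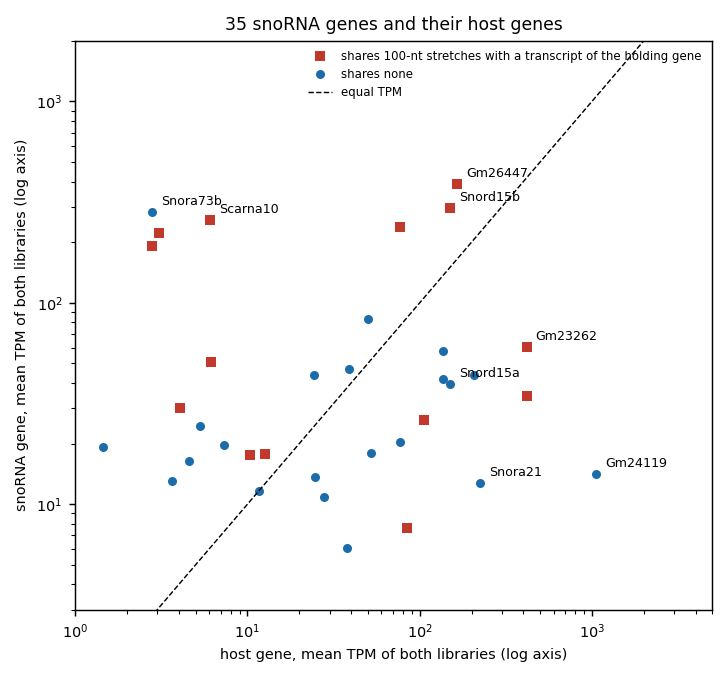
Mean TPM of both libraries for 35 snoRNA genes outside U3 against that of their host genes, both on log axes, with the dashed line at equal TPM. Red squares mark the 14 members that share 100-nt stretches with an annotated transcript of a gene that spans them and blue circles the 21 that share none; points lie on both sides of the line, from Snora73b far above it to Gm24119 far below it.

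For some members the annotation also holds a longer transcript that runs through the snoRNA, usually one with a retained intron. Of the 35, 14 had 100-nt stretches in such a transcript of a gene spanning them, and 8 had all of their stretches there. Levels in those longer transcripts reached at most 5.43 TPM. The retained-intron transcript of Rps3 (3183 nt) that holds all of Snord15b had 26.8 and 31.8 counts, or 0.31 and 0.35 TPM. The Eif4a1 transcript (3167 nt) that holds all of Gm22988 had 0.47 and 0.57 TPM, and the longer of the pair of Eif4a2 transcripts (756 nt) that hold Gm26447 had 0.50 and 0.70 TPM. Scarna10 also shares 80.5% of its stretches with the annotated record Gm28967, which held 0 counts. For Gm25791, inside Taf1d, a longer Taf1d transcript (3126 nt) took 20.1 and 40.5 counts against 19.8 and 18.6 for the snoRNA, so the division of its reads is uncertain. The 14 members that share stretches had a median of 55.6 TPM and 10 of them lay above the host in both libraries. The 21 that share none had a median of 19.6 TPM and 9 lay above the host, with a median log2 difference of -1.40 and -0.33. Whether reads came from the finished snoRNA or from unspliced host RNA was not tested.

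Between the libraries most members were higher in replicate 2. Of the 45 records 40 were higher in replicate 2, or 33 of 37 with U3 summed, while 55.3% of all 15689 genes with 10 or more mean counts were. The median log2 TPM ratio was 0.42 over the records and 0.51 with U3 summed, against 0.037 over all genes. Among all genes with mean counts of 10 to 100 it was 0.14, and 60.6% of them were higher in replicate 2. All 16 snoRNAs with 50 or more mean counts, U3 summed, were higher in replicate 2, from 0.13 to 0.82 on the log2 scale. The count ratio of Scarna10 per total count was 1.47 (95% exact binomial interval 1.37 to 1.57) and that of Snora73a 1.21 (1.08 to 1.36). It was 1.73 (1.5 to 2.0) for U3B and 1.81 (1.20 to 2.78) for Gm25788. For Gm22486 it was 1.12 (0.83 to 1.52), for Gm24119 1.13 (0.777 to 1.65) and for Gm23547 1.25 (0.975 to 1.62), so these 3 were not apart beyond counting error. The intervals reflect counting error alone and take each read as a separate molecule. Amplified reads are not separate molecules, so the intervals may be too narrow. They also leave out variation between libraries. In whole tissue, fewer cells of a type and less RNA per cell cannot be told apart.

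Few snoRNAs were 2-fold or more apart. Of the 45 records 9 were, or 20.0%, against 5.91% of all genes, with 8 higher in replicate 2 (4.79% of all genes) and 1 lower (1.12%). Single U3 records made up 6 of the 9. Their sums were closer, at 0.75 for U3B and 1.01 for U3A on the log2 scale. With U3 summed 4 of 37 (10.8%) were 2-fold or more apart, against 14.1% of all genes with mean counts of 10 to 100, the range in which most of these snoRNAs lie. They were Snora23, Gm25394, U3A and Snora44, all higher in replicate 2. Snora23 had the widest count ratio, 3.19 (1.33 to 8.81), on 7 and 23 counts.

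The direction was shared by other small RNAs and not by the 32 host genes as a set, though some noncoding hosts had it. The 32, of which 28 are protein-coding, had a median log2 ratio of -0.020, with 15 higher in replicate 2. At 2-fold or more apart were 0 of 32, against 5.91% of all genes and 2.34% of those with mean counts of 100 or more. With so few hosts, 0 cannot be told from such shares. Of the 4 long noncoding hosts, Snhg12 (0.65), Snhg1 (0.41) and Snhg9 (0.32, on 3 and 4 counts) were higher in replicate 2 and AC121821.1 (-0.36) was lower. A fixed list of known noncoding hosts, without a count minimum, had a median of 0.32. Of its 19 genes matched by symbol, 13 were higher in replicate 2. Beside that stand 55.3% of all genes and 60.6% of those with mean counts of 10 to 100. Only 17 of the 19 hold a snoRNA gene in the annotation. Meg3 and Snhg20 hold none and Snhg11 is annotated as protein-coding, and all of these were higher in replicate 2. Over the 35 pairs the snoRNA had the higher ratio than its host in 30, and Pearson's r between their ratios was -0.0064. The 26 snRNA genes, many of them with identical values, had a median of 0.45 and the 9 annotated scaRNA genes 0.42. The 44 protein-coding genes of 100 to 400 nt had a median of 0.027. What these small RNA classes share between the libraries was not tested.

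**Figure D4:**
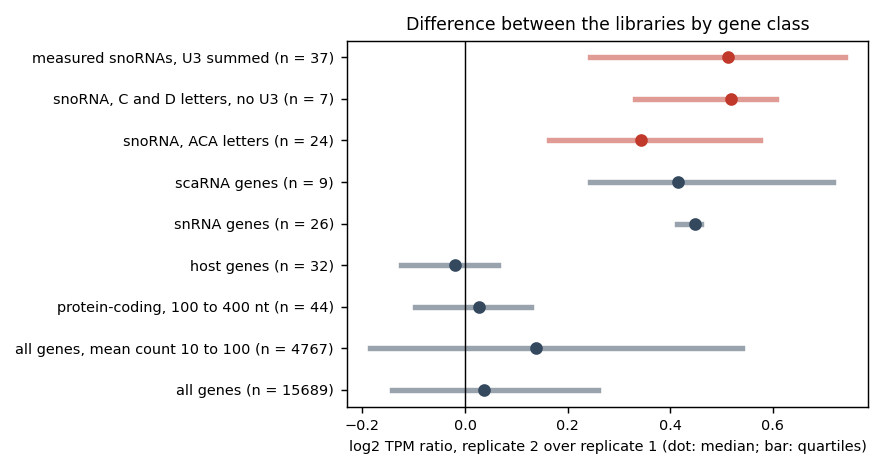
Log2 TPM ratio of replicate 2 over replicate 1 by gene class among genes with 10 or more mean counts (host genes without that minimum), with dots for medians and bars for quartiles over genes. The snoRNA, snRNA and scaRNA classes centre between 0.34 and 0.52, and the hosts and short protein-coding genes near 0.

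The mRNAs of the proteins that bind these RNAs were present at low levels. Of the C/D core proteins, Fbl, the methyltransferase fibrillarin, had 11.4 TPM in the first library and 12.8 TPM in the second, Nop56 11.8 and 15.6, Nop58 13.9 and 12.9, and Snu13 22.5 and 20.8. Of the H/ACA core proteins, Dkc1, the pseudouridine synthase dyskerin, had 9.64 and 9.07 TPM, Gar1 6.82 and 6.81, Nhp2 7.73 and 9.17, and Nop10 25.9 and 25.7. The 10 assembly factors ranged from 1.45 TPM (Nufip1) to 14.8 TPM (Pih1d1), and each of the 18 genes of these lists reached 1 TPM in replicate 1 and in replicate 2 and was less than 2-fold apart. Their median log2 ratios were 0.025, -0.0080 and 0.038 for C/D core, H/ACA core and assembly.

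Most snoRNA genes inside the known noncoding hosts lay outside the reach of these counts. Of 22 such genes 19 were matched by symbol, 17 reached 1 TPM in replicate 1 and in replicate 2, and their spans hold 263 snoRNA genes. Only 17 of these 263 are 100 nt or longer and 5 were members. The 263 do not represent all snoRNA genes, since 208 of them lie in Snhg14 alone. In the whole annotation 1049 of 1507 snoRNA genes are 100 nt or longer, and 45 of those 1049 (4.29%) were members. Gas5, whose introns hold 10 snoRNA genes, had 19.6 and 27.5 TPM, and none of the 10 reaches 100 nt. Snhg14, which spans the Snord115 and Snord116 clusters of the Prader-Willi region, had 2.73 and 2.02 TPM and holds 208 snoRNA genes, all under 100 nt. Rian, an imprinted RNA, had 1.92 and 2.48 TPM with 13 inside, again all under 100 nt. Zfas1 had 6.53 and 11.7 TPM with 3 inside. Snhg12 (3.15 and 4.99 TPM) holds 5 with 4 of them long enough, of which Snora44 was measured, and Snhg1 (5.26 and 7.0 TPM) holds 8 with Snord22 the one long enough and measured.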

How the data were processed

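Total RNA from 2 heart libraries of 1 group was analysed. Per the deposited readme, all tables refer to mm10 and the GENCODE M21 annotation. The expected counts and TPM values deposited by the authors came from transcriptome alignments and, per the file headers, have the column layout of RSEM; posterior mean TPM values were deposited beside them. Estimated counts and TPM deposited by the authors in a second table have the layout of kallisto. Programs and versions: not given in the sources used here.

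Annotated gene spans and transcript sequences were read from GENCODE M21. Each library gave 1 value per gene, shown as mean ± SD (n = 2). Ratios are log2(TPM + 0.1) of replicate 2 minus replicate 1, and a fold of 2 was counted without a test. Intervals are exact binomial on counts rounded to whole numbers (scipy 1.17.1). They were tested only on simulated independent counts. Those hold no amplified copies and no extra variation between libraries, so the simulation cannot show how the intervals hold for these reads. Members were compared over 100-nt stretches and by global alignment (biopython 1.88), with 80% identity for a family. At these depths 0 counts allow 0.0836 and 0.0812 CPM. Named are the 10 members with the most counts and with the highest TPM, the 5 most extreme ratios each way at a mean count of 50 or more, all Snord members, 3 on each side of the minimum, the 5 furthest above and below their hosts, and fixed protein and host lists. One comparison with a host is not reported here. The members and lists were chosen with earlier results of these data known.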

Additional observations from a re-analysis of the deposited data

How the results depend on the processing

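No paired analysis was possible because there was only 1 group. The kallisto-layout table ended most results: no snoRNA gene reached 10 counts, the median was 0 TPM, the share of TPM was 9.18e-05%, and 0 members lay above their host; ratios and class differences were not computed from it, since all but Scarna10 are listed at 0. With either replicate left out, the number of members was 44 to 46, the median 17.9 to 22.9 TPM, the share 0.239% to 0.324%, the Snora minus Snord difference -0.59 to -0.52, the host difference 0.98 to 1.20 and the number above the host 27 to 28. The Snora minus Snord difference of -0.56 became -1.25 per annotated length and -1.08 with classes by letters. The host difference of 1.09 became -0.55 per annotated length (16 above the host), 0.40 without U3 and with Snhg3 as host of Snora73a and Snora73b, and -0.86 for members that share no 100-nt stretch with a holding gene (9 above). The median log2 ratio of 0.42 was 0.51 with posterior mean TPM, 0.53 at 20 or more counts, 0.31 without a minimum and 0.51 with U3 summed. The number 2-fold apart, 9, was 4 with posterior mean TPM, 50 without a minimum and 4 with U3 summed. U3 summing raised the median to 30.7 TPM. The summing, the choice of letters, of Snhg3 and of unshared stretches were added after seeing the data; the cause of the other changes was not tested. Outside the alternatives named here, results kept their direction. For the log2 ratios of single records with a mean count of 50 or more, U3 duplicates included, 68 values under another pseudocount, estimate or scale moved by less than 0.5 of the width of their counting interval. The other was a Rnu3b1 record, whose ratio of 1.18 was 0.22 with posterior mean TPM. Members under 50 counts (22 of 45) are imprecise at this depth.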
